A study of Mus musculus with 20 samples.

Results

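The integrated stress response and the unfolded protein response were followed through 10 genes, Atf4, Ddit3, Atf3, Trib3, Asns, Chac1, Hspa5, Xbp1, Sesn2 and Fgf21, which were matched by symbol among the 25219 genes of the deposited table, and all 10 were found. RNA was sequenced from inguinal white adipose tissue (iWAT) and brown adipose tissue (BAT) of male mice, with 5 libraries in each of 4 groups, Control iWAT, Ai-α4KO iWAT, Control BAT and Ai-α4KO BAT. Ai-α4KO mice carried floxed alleles of Igbp1, the gene of the phosphatase regulator α4, and Adiponectin-CreERT2, a tamoxifen-dependent Cre recombinase that is active in adipocytes and leaves Igbp1 intact in the other cells of the depot. Control mice were labelled wild type and, per the study's methods, carried the floxed alleles without the Cre transgene. Mice of both genotypes received tamoxifen from 2 months of age, and tissue was taken 1 week after recombination. The labels do not say whether the same mice gave both tissues. Nor do they say whether a library holds more than 1 mouse, so that p-values measure the spread between these libraries.

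The integrated stress response joins 4 kinases that sense a lack of amino acids, unfolded protein in the endoplasmic reticulum (ER), viral RNA or a lack of heme. They phosphorylate the initiation factor eIF2α, which slows protein synthesis while the transcription factor ATF4 is translated more. ATF4 then turns on genes of amino acid supply, feedback and cell death, among them Asns, Trib3, Chac1, Sesn2, Atf3 and Ddit3. The unfolded protein response uses 1 of these kinases, PERK, together with the sensors IRE1, which splices Xbp1 mRNA, and ATF6, and raises ER chaperones such as Hspa5. Fgf21, a hormone best known from liver, is induced through ATF4 in several tissues, and in fat it signals through an FGF receptor bound to β-Klotho (Klb). Counts of whole genes cannot separate the spliced from the unspliced form of Xbp1, and they do not measure the translation of Atf4.

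Some of the promoters of these genes carry binding sites by which the 2 arms of the response are usually recognised, and their sequences are shown because the members that share a site moved in different directions. The C/EBP-ATF response element, which binds ATF4 with a C/EBP partner, was searched as TGATGNAA on both strands of the 300 bases from 250 before to 50 after each RefSeq transcript start (GRCm38.p6, windows from RefSeq). All 10 genes had a window. The element was found in 5 of the 10, Fgf21, Atf3, Chac1, Asns and Trib3, and in 3.97% of all 32851 windows. The 250 bases upstream of the start are given 5′ to 3′ on the strand of the gene, with the match in capitals:

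Fgf21, chr7:45615491-45615740, minus strand: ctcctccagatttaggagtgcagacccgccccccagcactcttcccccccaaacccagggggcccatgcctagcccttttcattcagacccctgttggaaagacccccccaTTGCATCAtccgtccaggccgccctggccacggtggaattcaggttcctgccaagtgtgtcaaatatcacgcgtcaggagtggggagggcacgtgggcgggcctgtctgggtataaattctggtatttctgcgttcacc

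Atf3, chr1:191183334-191183583, minus strand: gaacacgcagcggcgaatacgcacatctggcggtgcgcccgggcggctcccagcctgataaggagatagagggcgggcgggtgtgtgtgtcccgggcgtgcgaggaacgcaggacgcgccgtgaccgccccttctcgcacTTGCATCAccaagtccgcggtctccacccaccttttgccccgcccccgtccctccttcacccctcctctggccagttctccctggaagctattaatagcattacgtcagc

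Chac1, chr2:119350992-119351241, plus strand: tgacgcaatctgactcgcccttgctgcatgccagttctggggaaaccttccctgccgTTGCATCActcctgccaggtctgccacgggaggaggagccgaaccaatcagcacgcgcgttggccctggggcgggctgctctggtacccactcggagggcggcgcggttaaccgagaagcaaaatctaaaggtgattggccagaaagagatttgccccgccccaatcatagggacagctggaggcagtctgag

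Asns, chr6:7693210-7693459, minus strand: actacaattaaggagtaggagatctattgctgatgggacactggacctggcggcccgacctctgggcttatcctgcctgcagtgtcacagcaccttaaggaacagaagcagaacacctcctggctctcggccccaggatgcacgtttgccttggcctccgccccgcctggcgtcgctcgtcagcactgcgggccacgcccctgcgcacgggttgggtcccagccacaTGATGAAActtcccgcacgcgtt

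Trib3, site at chr2:152344039-152344046, minus strand, with flanks: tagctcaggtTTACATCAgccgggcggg

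In Fgf21 the match lay at bases -139 to -132, in Atf3 at -110 to -103, in Chac1 at -193 to -186, in Asns at -23 to -16 and in Trib3 at 15 to 22, downstream of the start. In Asns it lies on the strand of the gene, and in the other 4 on the opposite strand. The start of Asns in RefSeq differs from that in the deposited table, and the window follows RefSeq. The ER stress response element, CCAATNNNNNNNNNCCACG, which binds ATF6 with NF-Y, was found in 1 of the 10, Hspa5, at bases -65 to -47, and in 0.119% of all windows:

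Hspa5, chr2:34771840-34772089, plus strand: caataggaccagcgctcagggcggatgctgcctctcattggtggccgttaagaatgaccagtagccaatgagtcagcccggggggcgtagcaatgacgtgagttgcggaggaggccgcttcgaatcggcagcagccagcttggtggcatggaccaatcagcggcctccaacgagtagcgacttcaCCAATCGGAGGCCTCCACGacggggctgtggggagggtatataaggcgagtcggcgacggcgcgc

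The unfolded protein response element TGACGTGG (0.676% of windows) and the cAMP response element TGACGTCA (1.79% of windows) were found in 0 of the 10 windows. These elements were searched on both strands, and none of the matches listed overlaps another. The windows of Atf4, Ddit3, Xbp1 and Sesn2 held no match to any of the 4 elements, which says only that these letters are not in those 300 bases.

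**Figure D1:**
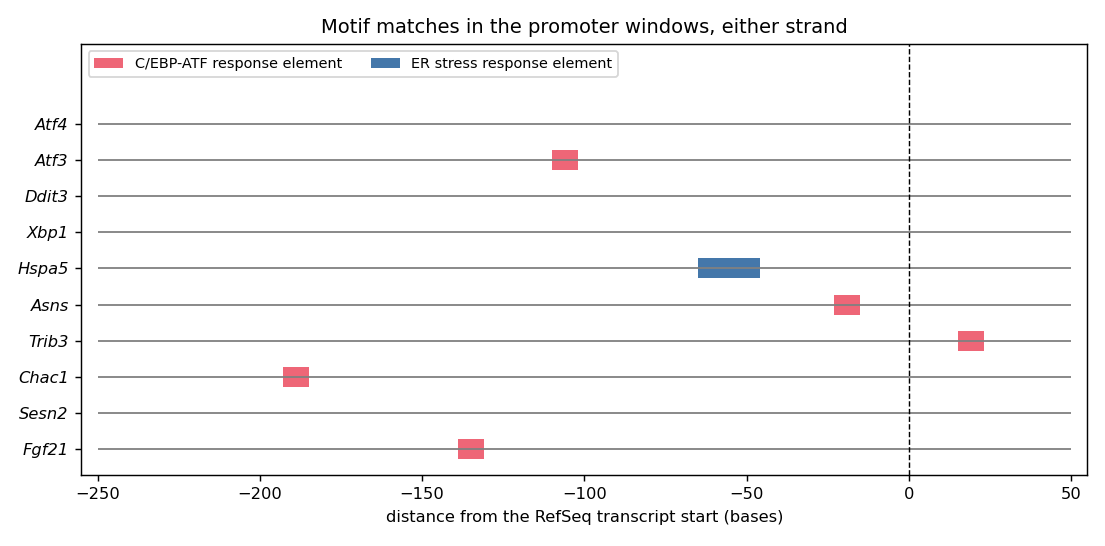
Position of each motif match in the promoter window of the 10 genes, in bases from the RefSeq transcript start (dashed line). Red boxes mark the C/EBP-ATF response element in Atf3, Asns, Trib3, Chac1 and Fgf21, and the blue box marks the ER stress response element in Hspa5.

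Libraries held between 24023371 and 50384446 counts. Levels are given as CPM, counts of a gene relative to the TMM-normalized size of its library, with all 20 libraries on 1 scale. The genotypes were compared by the quasi-likelihood test of edgeR within a tissue, with p-values adjusted by Benjamini-Hochberg over all genes tested, and a gene is said to have risen or fallen where the adjusted p was below 0.01. Igbp1 itself stood at 67.2 ± 7.01 CPM in Control iWAT and at 10.8 ± 0.394 in Ai-α4KO iWAT (SD, n = 5), and at 93.9 ± 7.29 in Control BAT and at 17.0 ± 4.83 in Ai-α4KO BAT (SD, n = 5), so that the targeted gene fell in both tissues (adjusted p = 4.99e-08 and 2.20e-07, edgeR). The 8 adipocyte markers were present in every group, and 7 fell in iWAT and 6 in BAT (median log2 fold changes -1.74 and -1.76), all but Lep in iWAT and all but Lep and Fabp4 in BAT. Their summed level, most of it Fabp4, ran from 20795 to 27948 CPM in Control iWAT and from 11302 to 15883 in Ai-α4KO iWAT, and from 19723 to 23035 in Control BAT and from 12568 to 14939 in Ai-α4KO BAT. In such bulk samples fewer cells of a type and less RNA per cell cannot be told apart. All 8 macrophage markers rose in both tissues, from a sum between 1138 and 1926 CPM to one between 7416 and 9976 in iWAT, and from between 229 and 517 to between 4272 and 6986 in BAT, and none of the 8 was at 0 in any group. Skeletal muscle markers rose in BAT, 6 of 8, from a sum between 882 and 9154 CPM to one between 12675 and 41379, and 0 of 8 passed the test in iWAT, where Control iWAT 4 (6870 CPM) and Ai-α4KO iWAT 1 (5208 CPM) held the most. Control iWAT 1 and Control iWAT 4 also held B cell markers, at 477 and 189 CPM against at most 7.86 in the other Control iWAT libraries. The same 2 libraries held T cell markers, at 156 and 178 CPM against at most 7.55 in the others, which widened the Control iWAT spread of that list. Neutrophil markers rose as well, 4 of 6 in iWAT and 6 of 6 in BAT, and endothelial markers fell, 3 of 5 in iWAT and 5 of 5 in BAT. In BAT 3 of 5 T cell and 3 of 6 stromal cell markers rose, and in iWAT 0 of either list passed.

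In iWAT, Fgf21, Atf3, Hspa5, Atf4 and Xbp1 rose, Sesn2 and Asns fell, and Ddit3, Trib3 and Chac1 did not pass the test. In BAT, Fgf21, Atf3, Chac1, Xbp1, Hspa5 and Atf4 rose, and Sesn2, Trib3, Asns and Ddit3 fell. The members thus did not move as a block in either tissue. The 5 with the C/EBP-ATF response element were split as well, with Fgf21 and Atf3 higher in both tissues, Asns lower in both, Trib3 lower in BAT and Chac1 higher in BAT. Of the 10 members, 5 passed the test as higher and 2 as lower in iWAT, against 21.5% and 18.8% of all 14604 genes tested. In BAT the counts were 6 higher and 4 lower, against 25% and 24.8% of all 14344 genes tested. With the further demand of a 2-fold change, iWAT had 3 members higher and 0 lower (11.3% and 10.7% of all genes), and BAT had 4 higher and 2 lower (18.2% and 13.3% of all genes). The libraries of the 2 genotypes did not overlap for 6 members in iWAT and for 9 in BAT, against 39% and 47.6% of all genes tested. The median log2 fold change of the 10 members was 0.38 in iWAT and 0.89 in BAT, beside 0.01 and -0.03 over all genes tested.

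**Figure D2:**
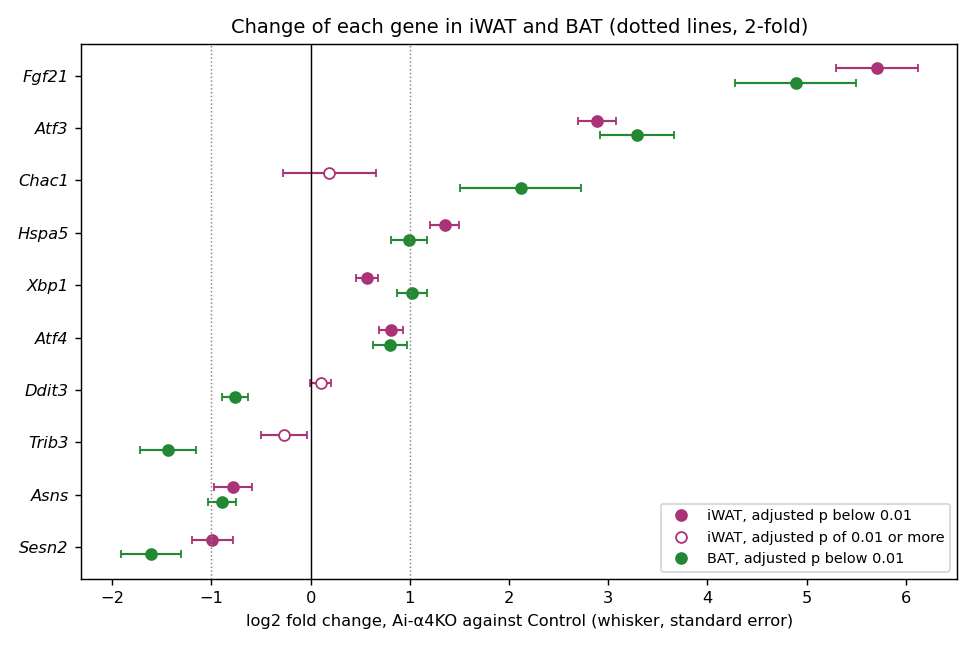
Log2 fold change of each of the 10 genes in Ai-α4KO against Control (x axis), with iWAT in purple and BAT in green, and whiskers for the standard error. Fgf21 (5.71 in iWAT, 4.89 in BAT) and Atf3 (2.89 and 3.29) lie farthest to the right, Sesn2 (-0.99 and -1.61) farthest to the left in both tissues, and the open points are Ddit3, Trib3 and Chac1 in iWAT, with an adjusted p of 0.01 or more.

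Fgf21, the secreted member, went from near the limit of detection to a clear level in both tissues. In Control iWAT it stood at 0.127, 0.218, 0.0751, 0.318 and 0.293 CPM in replicates 1 to 5, from 2 to 11 counts a library, and in Ai-α4KO iWAT at 14, 15.4, 10.9, 6.68 and 8.09 CPM, from 312 to 675 counts. In Control BAT it stood at 0.410, 0.274, 0.317, 0.282 and 0 CPM, from 0 to 9 counts, and in Ai-α4KO BAT at 15.2, 6.28, 10.5, 4.31 and 2.88 CPM, from 82 to 559 counts. Every Ai-α4KO library lay above every Control library of its tissue, and the Ai-α4KO BAT libraries spread more widely than those of iWAT. On the log2 scale the change was 5.71 in iWAT (standard error 0.41, adjusted p = 3.18e-06, edgeR) and 4.89 in BAT (standard error 0.61, adjusted p = 2.58e-05, edgeR). With Control counts this low the standard errors are among the widest of the 10 genes, and the difference between the tissues, -0.78 (standard error 0.76), did not pass the test (adjusted p = 0.509, edgeR interaction).

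On the receptor side of FGF21, Klb fell in both tissues and the receptor Fgfr1 did not pass in either. Klb, the β-Klotho co-receptor, went from 95.5 ± 31.4 to 22.9 ± 5.31 CPM in iWAT and from 67.0 ± 7.57 to 16 ± 9.63 CPM in BAT (SD, n = 5), log2 fold changes of -2.07 (adjusted p = 4.50e-05, edgeR) and -2.10 (adjusted p = 6.57e-05, edgeR). Fgfr2, an FGF receptor, fell in BAT, by 2.23 on the log2 scale (standard error 0.44, adjusted p = 8.10e-04, edgeR). Fgfr1, the main FGF receptor of fat, was at 182 ± 37.5 and 140 ± 42.3 CPM in iWAT and at 75.7 ± 11.9 and 73.8 ± 13.1 CPM in BAT (SD, n = 5; log2 fold changes -0.39 and -0.07, adjusted p = 0.193 and 0.662, edgeR), and was chosen after its values were seen. Of Klb and the FGF receptor genes tested, 0 rose and 1 of 4 fell in iWAT, and 0 rose and 3 of 5 fell in BAT. In the same libraries the adipocyte markers fell to a like extent (medians -1.74 in iWAT and -1.76 in BAT, with Adipoq at -2.21 and -2.15), and their part in the result was not tested.

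Of the transcription factors, Atf4 and Atf3 rose in both tissues while Ddit3 did not rise in either. Atf4, the factor at the centre of the response, stood at 147, 115, 135, 180 and 143 CPM in Control iWAT and at 264, 275, 239, 231 and 256 in Ai-α4KO iWAT. In BAT it stood at 243, 143, 116, 163 and 181 CPM in Control and at 326, 276, 279, 333 and 300 in Ai-α4KO libraries. The groups did not overlap in either tissue, and Control BAT 1 lay nearest to the Ai-α4KO libraries. The log2 fold changes were 0.81 in iWAT (standard error 0.12, adjusted p = 2.54e-04, edgeR) and 0.80 in BAT (standard error 0.17, adjusted p = 0.0017, edgeR). The difference between them was 0.03 (standard error 0.22, adjusted p = 0.947, edgeR interaction).

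Atf3 encodes a factor induced by ATF4 and by many other stress and inflammatory signals. It stood at 9.51, 4.16, 6.42, 5.84 and 6.39 CPM in Control iWAT and at 50.4, 42.9, 49.2, 49.3 and 49.1 in Ai-α4KO iWAT. In BAT the values were 9.42, 7.12, 1.63, 4.66 and 4.54 in Control and 55.9, 38.2, 44.5, 63.6 and 71.5 in Ai-α4KO libraries. The lowest Ai-α4KO library was far above the highest Control library in each tissue. The log2 fold change was 2.89 in iWAT (standard error 0.19, adjusted p = 2.16e-06, edgeR) and 3.29 in BAT (standard error 0.37, adjusted p = 1.00e-05, edgeR). Macrophages also express Atf3, and the macrophage markers rose in the same libraries, with a median change of 2.30 in iWAT and of 3.99 in BAT on the log2 scale. Their part in the result was not tested.

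Ddit3 encodes CHOP, the factor that links prolonged stress to cell death. It stood at 16, 14, 18.3, 16.1 and 15 CPM in Control iWAT and at 17.7, 19.4, 15.3, 16.7 and 16.3 in Ai-α4KO iWAT, and the groups overlapped. In BAT it stood at 37.2, 25.2, 27.1, 32.5 and 32.3 CPM in Control and at 18.8, 17.2, 20.1, 20.7 and 16.7 in Ai-α4KO libraries, where every Ai-α4KO library was lower. The Ai-α4KO BAT range, 16.7 to 20.7 CPM, overlapped that of both iWAT groups. On the log2 scale the change was 0.10 in iWAT (standard error 0.11, adjusted p = 0.477, edgeR) and -0.76 in BAT (standard error 0.13, adjusted p = 3.34e-04, edgeR). Ddit3 was the 1 member of 10 whose change differed between the tissues, by -0.82 on the log2 scale (standard error 0.16, adjusted p = 0.00286, edgeR interaction), beside 4.86% of all 15230 genes tested. That call did not hold when any 1 of 7 libraries was left out, with differences from -0.68 to -0.75 and adjusted p-values from 0.0101 to 0.0138, without Control iWAT 1, without Ai-α4KO iWAT 2, 4 or 5, or without Ai-α4KO BAT 1, 2 or 5. Ddit3 shares 68 bases with Mars, the methionyl-tRNA synthetase gene, on the opposite strand, and the strand setting of the counting is not given in the sources used here. Mars fell in BAT, by 1.24 on the log2 scale (adjusted p = 4.43e-06, edgeR), and also in iWAT, by 0.85 (adjusted p = 1.74e-04, edgeR), where Ddit3 did not pass the test.

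Of the genes more directly tied to ATF6 and IRE1, Hspa5 and Xbp1 rose in both depots. Hspa5 encodes BiP, the main ER chaperone and the usual readout of ATF6. In Control iWAT its mean was 634 ± 23.7 CPM (SD, n = 5), with libraries between 595 and 659, and in Ai-α4KO iWAT 1624 ± 372 (SD, n = 5), with libraries between 1260 and 2148. In BAT the means were 623 ± 108 in Control and 1263 ± 300 in Ai-α4KO (SD, n = 5), with ranges of 531 to 781 and 902 to 1516. The groups did not overlap in either tissue, and the Control iWAT libraries had the smallest spread. The log2 fold change was 1.35 in iWAT (standard error 0.15, adjusted p = 2.90e-05, edgeR) and 0.99 in BAT (standard error 0.18, adjusted p = 5.22e-04, edgeR).

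Xbp1, whose mRNA is the substrate of IRE1, stood at 293, 269, 295, 304 and 306 CPM in Control iWAT and at 404, 544, 430, 430 and 387 in Ai-α4KO iWAT. In BAT it stood at 144, 195, 124, 160 and 147 CPM in Control and at 385, 368, 306, 274 and 266 in Ai-α4KO libraries. All Ai-α4KO libraries were above all Control libraries of their tissue. On the log2 scale the change was 0.57 in iWAT (standard error 0.11, adjusted p = 0.00106, edgeR) and 1.02 in BAT (standard error 0.15, adjusted p = 7.72e-05, edgeR). Xbp1 is also strongly expressed in plasma cells. Of the plasma cell markers 2 of 5 rose and 1 fell in iWAT and 2 of the 3 tested rose in BAT, where their sum was 6.66 to 9.95 CPM in Control and 26.3 to 40 CPM in Ai-α4KO libraries. Most of that sum was Sdc1 (5.04 ± 0.485 and 23.9 ± 5.49 CPM; SD, n = 5), while Igj, the immunoglobulin joining chain, was at 1.82 ± 0.772 and 0.997 ± 0.66 CPM in BAT (adjusted p = 0.111, edgeR) and fell in iWAT (-2.88, adjusted p = 0.00642, edgeR), and the part of these markers in the result was not tested. Without the 2 Control iWAT libraries that held B cell markers, the iWAT change was 0.51 (adjusted p = 0.0103, edgeR) and did not pass. The difference between the tissues was 0.47 (standard error 0.19, adjusted p = 0.0892, edgeR interaction).

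Asns and Sesn2, both known targets of ATF4, fell in both tissues although Atf4 mRNA rose. Asns encodes asparagine synthetase. It stood at 73.4, 122, 102, 146 and 150 CPM in Control iWAT and at 62.0, 86.7, 67.1, 69.3 and 62.2 in Ai-α4KO iWAT, and in BAT at 138, 131, 131, 102 and 134 in Control and 91.6, 75.0, 65.8, 61.5 and 58.0 in Ai-α4KO libraries. The groups overlapped in iWAT through Control iWAT 1 and Ai-α4KO iWAT 2, and did not overlap in BAT. The log2 fold change was -0.78 in iWAT (standard error 0.19, adjusted p = 0.0046, edgeR) and -0.89 in BAT (standard error 0.14, adjusted p = 1.28e-04, edgeR). The iWAT call was lost when any 1 of 7 libraries was left out, Control iWAT 2, 4 or 5 or Ai-α4KO iWAT 1, 3, 4 or 5 (log2 fold changes from -0.68 to -0.77, adjusted p from 0.0109 to 0.0146), and without the 2 iWAT libraries that held the most muscle markers (-0.66, adjusted p = 0.0221).

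Sesn2 encodes sestrin 2, a sensor of leucine and a brake on mTORC1. It stood at 27.5, 13.7, 18.5, 12.9 and 20.7 CPM in Control iWAT and at 11.0, 9.66, 8.45, 10.5 and 7.52 in Ai-α4KO iWAT. In BAT the values were 33.0, 23.7, 13.8, 18.9 and 36.2 in Control and 12.9, 10.5, 6.69, 6.02 and 6.11 in Ai-α4KO libraries. Every Ai-α4KO library lay below every Control library of its tissue, with a gap of less than 2 CPM in each. On the log2 scale the change was -0.99 in iWAT (standard error 0.21, adjusted p = 0.00224, edgeR) and -1.61 in BAT (standard error 0.30, adjusted p = 5.24e-04, edgeR). The difference between the tissues was -0.58 (standard error 0.38, adjusted p = 0.313, edgeR interaction).

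Trib3, a pseudokinase that damps ATF4 and AKT signaling, stood at 8.94, 5.78, 13.7, 9.81 and 10.9 CPM in Control iWAT and at 8.14, 10.3, 9.58, 6.32 and 6.54 in Ai-α4KO iWAT. In BAT it stood at 22.3, 30.4, 18.5, 44.7 and 16.4 CPM in Control and at 13.6, 12.3, 9.48, 7.31 and 7.20 in Ai-α4KO libraries. The groups overlapped in iWAT and were separate in BAT, where Control BAT 4 was the highest library. The log2 fold change was -0.27 in iWAT (standard error 0.23, adjusted p = 0.345, edgeR) and -1.44 in BAT (standard error 0.28, adjusted p = 8.60e-04, edgeR). Their difference of -1.14 (standard error 0.39) did not pass the test (adjusted p = 0.0519, edgeR interaction).

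Chac1, which degrades glutathione, varied widely among the libraries. It stood at 3.35, 0.932, 2.44, 5.70 and 5.42 CPM in Control iWAT and at 6.94, 5.65, 2.86, 2.40 and 2.62 in Ai-α4KO iWAT, with no separation of the groups. In BAT the values were 1.5, 10.4, 3.31, 9.17 and 2.79 in Control and 14.8, 7.92, 31.3, 55.3 and 11.9 in Ai-α4KO libraries, and Control BAT 2 and 4 lay above Ai-α4KO BAT 2. On the log2 scale the change was 0.19 in iWAT (standard error 0.47, adjusted p = 0.755, edgeR) and 2.12 in BAT (standard error 0.61, adjusted p = 0.00943, edgeR). The difference between the tissues was 1.96 (standard error 0.83, adjusted p = 0.115, edgeR interaction). The BAT call was lost when any 1 of 5 libraries was left out, Control BAT 1, 3 or 5 or Ai-α4KO BAT 3 or 4 (log2 fold changes from 1.61 to 2, adjusted p from 0.0184 to 0.0252).

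The skeletal muscle markers summed to more in every Ai-α4KO BAT library than in any Control BAT library. Their summed level in Ai-α4KO BAT 1 to 5 was 12675, 13812, 23003, 41379 and 23688 CPM. Ai-α4KO BAT 4 had the most of both muscle markers and Chac1, while Ai-α4KO BAT 5, with the next highest muscle sum, had less Chac1 than Ai-α4KO BAT 1. In Control BAT 1 to 5 it was 882, 8619, 5031, 4898 and 9154 CPM, below every Ai-α4KO BAT library, and Control BAT 5 had the most muscle markers but less Chac1 than Control BAT 2, 3 and 4. With the muscle marker score as a covariate, Chac1 differed by 0.19 on the log2 scale (standard error 0.72, adjusted p = 0.859, edgeR). In that fit 0 of the 4 lower members passed, with Ddit3 at -0.59 (adjusted p = 0.0327, edgeR), Trib3 at -1.24 (adjusted p = 0.0361, edgeR), Asns at -0.71 (adjusted p = 0.0123, edgeR) and Sesn2 at -1.22 (adjusted p = 0.0242, edgeR). Fgf21 (6.16), Atf3 (3.67), Hspa5 (1.21), Atf4 (1.15) and Xbp1 (1.05) still passed, with log2 fold changes above those without the covariate. The score and the genotype do not overlap between the BAT groups and are separated in that fit only by the spread within groups. The part of muscle in the BAT results therefore cannot be told apart from that of the genotype.

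**Figure D3:**
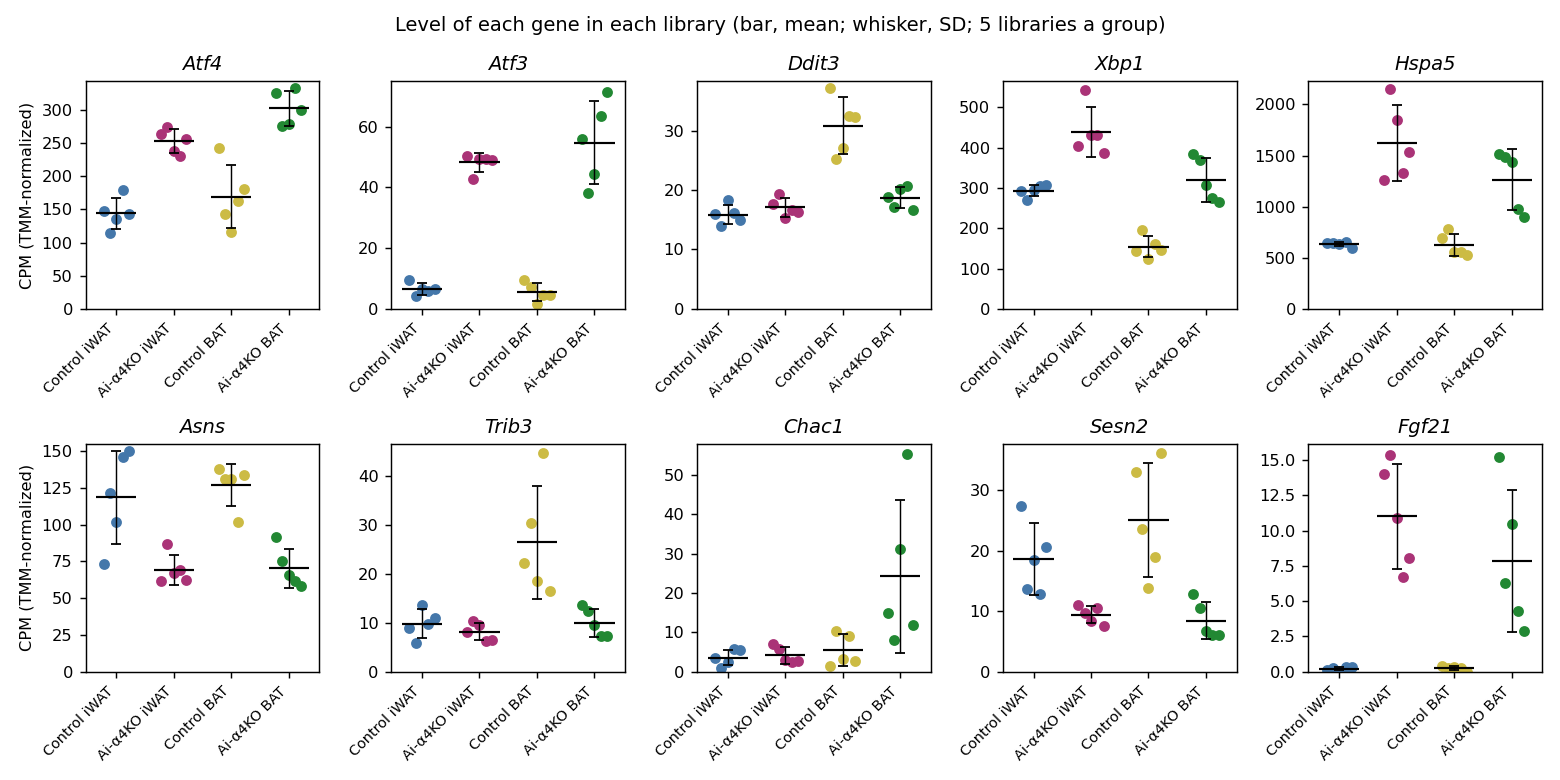
CPM of the 10 genes in each library (y axis, from 0), with 5 points a group, a bar for the mean and a whisker for the SD. Fgf21, Atf3, Hspa5, Atf4 and Xbp1 are higher in every Ai-α4KO library than in any Control library of the same tissue, and Chac1 in Ai-α4KO BAT spreads from 7.92 to 55.3 CPM.

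Compared per length, as the deposited FPKM, Hspa5 had the highest level in all 4 groups and Fgf21 the lowest in both Control groups. In Control iWAT the mean FPKM fell from Hspa5 (218 ± 16.8) through Xbp1 (117 ± 8.87), Atf4 (75.0 ± 14.5), Asns (55.5 ± 15.9) and Ddit3 (16.3 ± 1.13) to Sesn2 (6.33 ± 2.16), Trib3 (4.26 ± 1.04), Atf3 (2.95 ± 0.962), Chac1 (2.06 ± 1.2) and Fgf21 (0.198 ± 0.103; SD, n = 5). Sesn2 and Trib3, Trib3 and Atf3, and Atf3 and Chac1 lie within their summed SD of each other in that order, as do Atf4 and Asns. In Ai-α4KO iWAT Atf3 was at 23.9 ± 1.62 FPKM and Fgf21 at 11.4 ± 3.88 (SD, n = 5), above Trib3 (3.90 ± 0.825), Sesn2 (3.48 ± 0.563) and Chac1 (2.56 ± 1.32), which lie within their spread of each other. In Control BAT, Atf4 (76.3 ± 22.9), Xbp1 (53.1 ± 8.35) and Asns (51.2 ± 5.56) were neighbours within their spread (SD, n = 5). In Ai-α4KO BAT, Atf4 (159 ± 12.8) and Xbp1 (130 ± 27.9) stood above Asns (33.5 ± 7.76; SD, n = 5). Asns, Atf3 (25.1 ± 5.85), Ddit3 (19.5 ± 1.30) and Chac1 (13.6 ± 10.2) were there neighbours within their spread, each with the next (SD, n = 5). In both tissues Atf3 stood below Sesn2 and Trib3 in Control and above them in Ai-α4KO libraries. Fgf21 did the same in iWAT, while in Ai-α4KO BAT it was at 7.62 ± 5.05 FPKM, within the spread of Trib3 (4.48 ± 1.49) and Sesn2 (2.94 ± 1.2; SD, n = 5).

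Between the Control depots, Ddit3 and Trib3 were higher in BAT and Xbp1 was higher in iWAT. The log2 difference of BAT from iWAT was 0.93 for Ddit3 (standard error 0.13, adjusted p = 1.48e-04, edgeR), 1.39 for Trib3 (standard error 0.29, adjusted p = 0.00213, edgeR) and -0.97 for Xbp1 (standard error 0.11, adjusted p = 4.26e-05, edgeR). Each of the 3 differences was larger than the spread within the groups, whose libraries did not overlap for any of these genes. Ddit3 ran from 14 to 18.3 CPM in iWAT and from 25.2 to 37.2 in BAT, Trib3 from 5.78 to 13.7 and from 16.4 to 44.7, and Xbp1 from 269 to 306 and from 124 to 195. The share of all genes without overlap between the Control depots was not counted. Fgf21 was too low in both Control groups to be tested. Of the 9 members tested, 2 were higher and 1 lower in BAT, against 16.4% and 20.4% of all 14260 genes tested, and 1 was at least 2-fold higher and 0 at least 2-fold lower (7.22% and 14.7% of all genes). The Control BAT libraries are those of the genotype comparison in BAT, so the depot and genotype values share them.

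Around the members, 11 lists of pathway genes were counted, to be read beside the shares of all genes tested that rose or fell, 21.5% and 18.8% in iWAT and 25% and 24.8% in BAT. The ER chaperones and folding enzymes moved mostly in 1 direction, since in iWAT 15 of 18 rose and 1 fell (median log2 fold change 0.68), and in BAT 12 of 18 rose and 1 fell (median 0.71). Sdf2l1, a cofactor of BiP, went from 9.02 ± 2.30 to 31.3 ± 4.76 CPM in iWAT and from 2.84 ± 0.663 to 20.7 ± 4.65 CPM in BAT (SD, n = 5), log2 fold changes of 1.79 and 2.83. Manf, a secreted factor of the same response, rose by 1.43 in iWAT and 1.56 in BAT on the log2 scale (adjusted p = 2.07e-05 and 2.01e-05, edgeR). By contrast, ER-associated degradation had in iWAT 3 of 14 genes that rose and 1 that fell (median 0.09), and in BAT 1 that rose and 2 that fell (median 0.03). In the same libraries the macrophage markers were higher (medians 2.30 in iWAT and 3.99 in BAT) and the adipocyte markers lower (medians -1.74 and -1.76). The part of these markers in the chaperone result was not tested.

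A list of 9 genes held the 4 eIF2α kinases, the phosphatase subunits Ppp1r15a and Ppp1r15b, and Eif2s1 (eIF2α itself), Nck1 and Impact, of which Nck1 and Impact regulate its phosphorylation. Of the 9, 6 rose and 0 fell in iWAT (median 0.58), and 1 rose and 1 fell in BAT (median 0.05). Of the 6 kinases and phosphatase subunits alone, 3 rose in iWAT (Eif2ak2, Eif2ak3 and Ppp1r15a), and in BAT 0 rose and 1 fell (Eif2ak4), while Impact was the gene that rose in BAT. Eif2ak2, the kinase that senses double-stranded RNA, was the 1 of these at least 2-fold higher in iWAT (log2 fold change 1.07, standard error 0.17, adjusted p = 3.18e-04, edgeR). The ER sensor genes were chosen for their role after their values were seen. On the log2 scale Eif2ak3 (PERK) was higher by 0.58 in iWAT (adjusted p = 4.88e-04, edgeR) and by 0.05 in BAT (adjusted p = 0.785, edgeR), and Atf6 by 0.62 in iWAT (adjusted p = 5.02e-04, edgeR) and by 0.18 in BAT (adjusted p = 0.117, edgeR). Ern1 (IRE1) did not pass in either tissue, at 0.49 in iWAT (adjusted p = 0.134, edgeR) and -0.13 in BAT (adjusted p = 0.738, edgeR). The difference between the tissues did not pass the test for any of these 3 genes (adjusted p = 0.0828, 0.046 and 0.38 for Eif2ak3, Atf6 and Ern1, edgeR interaction). Of the ER stress sensors and proteases, 1 of 7 rose and 1 fell in iWAT, and 0 rose and 1 fell in BAT (medians 0.22 and -0.13). Of the 8 eIF2B and eIF2 subunits, 1 rose and 0 fell in iWAT, and 1 rose and 1 fell in BAT (medians 0.06 and -0.11).

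Genes of amino acid synthesis and transport were split in iWAT, while in BAT more of them rose than fell. Among the 14 genes of amino acid and one-carbon synthesis, 5 rose and 4 fell in iWAT (median 0.15), and 7 rose and 1 fell in BAT (median 0.78). The mitochondrial folate enzymes Aldh1l2 (log2 fold change 2.29 in iWAT and 2.90 in BAT) and Mthfd2 (1.57 and 2.27) rose in both tissues, and Mthfd1l rose in BAT (2.96, standard error 0.27, adjusted p = 2.29e-06, edgeR). Phgdh, the first enzyme of serine synthesis, fell in iWAT from 109 ± 24.8 to 25.3 ± 15 CPM (SD, n = 5), a log2 fold change of -2.11 (adjusted p = 5.32e-04, edgeR), and Cbs, an enzyme of transsulfuration, had one of -2.33 there (adjusted p = 9.79e-05, edgeR). In BAT Phgdh was at -0.70 (adjusted p = 0.0333, edgeR) and Cbs at -1.65 (adjusted p = 0.0115, edgeR), and neither passed. Psph, the last enzyme of serine synthesis, fell in iWAT (-0.60, adjusted p = 0.00175, edgeR) and BAT (-0.43, adjusted p = 0.00817, edgeR). In iWAT, Mthfd1l was at 1.37 (adjusted p = 0.0152, edgeR) and Psat1, also of serine synthesis, at 0.07 (adjusted p = 0.644, edgeR). Psph was chosen after its values were seen.

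2 of the 14 genes of this list passed the interaction test, beside 4.86% of all 15230 genes tested. Psat1, the second enzyme of serine synthesis, stood at 80.9 ± 13.4 CPM in Control iWAT and at 85.3 ± 8.59 in Ai-α4KO iWAT, and at 12.3 ± 4.72 in Control BAT and 40.5 ± 18.4 in Ai-α4KO BAT (SD, n = 5). The difference of the changes was 1.64 (standard error 0.37, adjusted p = 0.0077, edgeR interaction). Gpt2, an alanine aminotransferase of mitochondria, stood at 256 ± 78.9 CPM in Control iWAT and at 65.0 ± 15.5 in Ai-α4KO iWAT, and at 59.5 ± 42.2 in Control BAT and 79.5 ± 25.4 in Ai-α4KO BAT (SD, n = 5), with a difference of 2.39 (standard error 0.53, adjusted p = 0.00634, edgeR interaction). Psat1 rose in BAT alone of the 2 tissues by the test, and Gpt2 fell in iWAT. The interaction call was lost for Psat1 when any 1 of 9 libraries was left out, and for Gpt2 when any 1 of 7 was. Over all 20 such fits the difference ran from 1.49 to 1.89 for Psat1 and from 2.16 to 2.89 for Gpt2.

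Among the 10 amino acid transporters known as ATF4 targets, 5 rose and 3 fell in iWAT (median 0.47), and 4 rose and 1 fell in BAT (median 0.93). Slc7a11, the cystine transporter, went from 2.73 ± 1.95 to 62.3 ± 37.3 CPM in iWAT and from 0.585 ± 0.424 to 57.3 ± 30.2 CPM in BAT (SD, n = 5), log2 fold changes of 4.5 (adjusted p = 5.40e-05, edgeR) and 6.58 (adjusted p = 4.46e-07, edgeR). Slc7a1, an arginine transporter, rose in iWAT (1.75) and BAT (2.09), and so did Slc7a5, a leucine transporter (1.62 and 3.50). Slc1a5, a glutamine transporter, fell in both tissues (-2.05 and -2.10). Slc43a1, another leucine transporter, fell in iWAT (-2.15) and was at -0.41 in BAT (adjusted p = 0.299, edgeR). Of the 12 cytosolic aminoacyl-tRNA synthetases, 4 rose and 1 fell in iWAT, and 1 rose and 2 fell in BAT (medians 0.23 and 0.12).

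The stress effectors and feedback genes counted 7 of 20 that rose and 7 that fell in iWAT, and in BAT 5 that rose and 6 that fell (medians -0.26 and -0.19), in BAT near the shares of all genes. Gdf15, a stress hormone often measured together with FGF21, went from 0.324 ± 0.356 to 23.7 ± 11.9 CPM in iWAT and from 1.03 ± 1.11 to 28.8 ± 13.9 CPM in BAT (SD, n = 5), log2 fold changes of 6.09 (adjusted p = 4.67e-05, edgeR) and 4.71 (adjusted p = 9.22e-05, edgeR). The 2 secreted stress hormones thus rose together in both tissues. Sqstm1, an autophagy receptor, rose in both tissues (1.44 in each), as did Bcl2l11, which promotes apoptosis (1.43 in iWAT and 1.87 in BAT). Vegfa, an angiogenic factor, fell in iWAT (-2) and BAT (-1.64), as did Cebpa, a factor of adipocyte identity (-1.65 and -1.84), and Ddit4, an inhibitor of mTORC1 (-1.64 and -1.84). Stc2 fell in iWAT (-1.86) and was at 0.69 in BAT (adjusted p = 0.213, edgeR). Its iWAT call was lost when any 1 of 4 libraries was left out, with log2 fold changes from -2.09 to -1.66 over all 10 such fits. The part of the lower adipocyte markers in these results was not tested.

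The mitochondrial stress relay, chaperones and proteases fell in both tissues, 8 of 11 in each, with 1 higher in iWAT and 0 in BAT (medians -0.89 and -1). Clpp, a protease of the matrix, had log2 fold changes of -1.39 in iWAT and -2.01 in BAT. Trap1, a chaperone of the HSP90 family, fell in both (-1.39 and -1.51), as did Dnaja3, a co-chaperone (-1.28 and -1.71). In the same libraries most ER chaperones were higher, the adipocyte markers were lower (medians -1.74 and -1.76), as were 5 of 6 brown adipocyte markers in iWAT and 2 of 6 in BAT (medians -2.56 and -0.67, with Ucp1 at -6.57 and -2.39), and in BAT 6 of 8 muscle markers were higher. The part of these markers in the result was not tested.

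**Figure D4:**
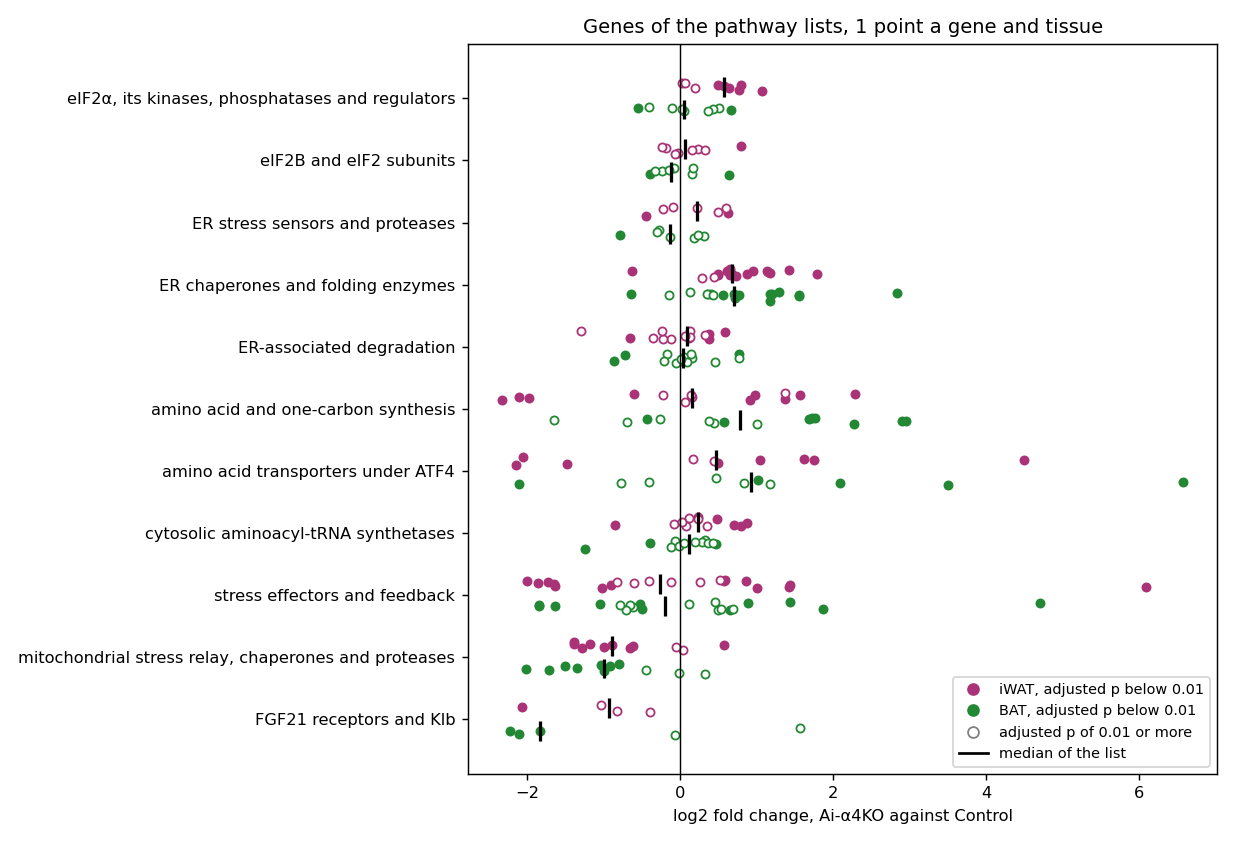
Log2 fold change (x axis) of each gene tested in the 11 pathway lists (rows), with iWAT in purple above and BAT in green below, filled points for an adjusted p below 0.01 and black bars for list medians. ER chaperones lie mostly to the right of 0 (medians 0.68 and 0.71) and the mitochondrial list mostly to the left (medians -0.89 and -1), while the amino acid lists reach far to both sides.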

How the data were processed

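Per the study's methods, mRNA libraries from a stranded kit were sequenced from both ends (150 bp reads), and the submitters' processing notes name bcl2fastq 2, STAR 2.5.3a and mm10. The counting tool, its strand setting and the annotation are not given in the sources used here. The authors deposited an expected count, an estimated number of reads that need not be whole, and an FPKM value for each of 25219 genes and 20 libraries. In this work counts were rounded, filtered by filterByExpr, scaled by TMM and fitted by glmQLFit in edgeR 4.0.16 (R 4.3.3) without covariates. Each tissue was fitted alone for the genotypes, the Control libraries for the depots, and all 20 libraries for the interaction. A gene passed at an adjusted p below 0.01, with a 2-fold change where stated. FPKM, which depends on the authors' transcript lengths, served to order genes by level.

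The 10 members and the gene lists were chosen with earlier results of these data known. Named list genes are the 2 that rose most and the 2 that fell most among those at least 2-fold changed in each list and tissue, and list genes that passed the interaction. Replicate numbers were not taken to pair libraries. Between the genotypes, 2 of 5 same-numbered pairs in iWAT and 1 of 5 in BAT correlated above 0.1, and between the Control depots, where a mouse could be shared, 2 of 5 did. Alternatives were DESeq2 1.42.0, other scalings and filters, limma 3.58.1 on FPKM, covariates and leaving out libraries. No library was left out of the fits reported first.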

Additional observations from a re-analysis of the deposited data

Results flagged for a closer look

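Among the 40 groups of 5 libraries examined for the 10 genes, 3 held a library set apart from the other 4 by more than Dixon's limit, where chance alone gives about 1 in 20. Atf3 in Ai-α4KO iWAT 2 was at 42.9 CPM, below the other libraries of its group. Asns in Control BAT 4 was at 102 CPM, below the other Control BAT libraries. Xbp1 in Ai-α4KO iWAT 2 was at 544 CPM, above the other libraries of its group. Among the 10 genes and the 11 pathway lists, 3 genes had a change in BAT that differed from the one in iWAT by edgeR's interaction test, with a difference of -0.82 on the log2 scale for Ddit3, 2.39 for Gpt2 and 1.64 for Psat1. They are 1 of the 10 members and 2 of the 14 genes of amino acid and one-carbon synthesis, with none in the other lists. Of all 15230 genes tested, 4.86% passed.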

How the results depend on the processing

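The 5 higher members in iWAT stayed at 5 in every fit that left out 1 library, and the 4 lower members in BAT at 4. Lower members in iWAT numbered 1 instead of 2 by library size without TMM factors, by limma on log2(FPKM + 1) and log2(FPKM + 0.1), and without the 2 iWAT libraries high in muscle markers, an alternative chosen after seeing the data. At least 2-fold lower members in iWAT numbered 1 instead of 0 by DESeq2, by upper-quartile factors and without those 2 libraries. In BAT they numbered 1 instead of 2 by limma on log2(FPKM + 1). With the muscle score as a covariate, 0 members passed as lower in BAT, and so 0 passed as at least 2-fold lower. Trib3 (-1.24) and Sesn2 (-1.22 on the log2 scale) were still more than 2-fold lower in that fit. They were lost by the adjusted p alone (0.0361 and 0.0242, edgeR). In the same fit 1675 genes instead of 2614 passed as at least 2-fold higher. Genes at least 2-fold lower numbered 779 instead of 1559 in iWAT by limma on log2(FPKM + 1), and in BAT 1265 instead of 1910 by library size, 807 by limma on log2(FPKM + 1) and 1205 on log2(FPKM + 0.1). Genes passing the interaction numbered 1648 by DESeq2 and 2297 at an adjusted p below 0.05, instead of 740. Between Control depots, 1 member instead of 0 was at least 2-fold lower by library size, by upper-quartile factors and by both limma fits, and limma on log2(FPKM + 1) gave 532 genes at least 2-fold higher and 1241 lower instead of 1030 and 2092. Scaling by library size moved the median of all genes to 0.13 in iWAT, 0.23 in BAT and -0.20 between Control depots. For the other changes the cause was not tested.

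Differences near 0 changed sign. The Asns interaction of -0.08 became 0.04 by library size, 0.00 by upper-quartile factors and 0.06 with at least 10 counts in every library. The Control depot difference of Atf4 was -0.01 by both limma fits, and that of Asns -0.13 by library size, -0.02 by upper-quartile factors and -0.07 by both limma fits. Leaving out 1 library gave ranges of 1 to 2 for lower and 0 to 1 for at least 2-fold lower members in iWAT, 2 to 5 for at least 2-fold higher members in BAT, 474 to 1019 genes and 0 to 1 members in the interaction, and 1 to 2 at least 2-fold higher and 0 to 1 at least 2-fold lower members between depots. It moved the log2 fold change of Chac1 in iWAT between -0.08 and 0.43, the interaction of Atf4 between -0.08 and 0.19 and of Asns between -0.18 and 0.16, and the depot difference of Asns between -0.06 and 0.17 and of Hspa5 between -0.14 and 0.02.

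The replicate block gave 1584 higher and 1461 lower genes in iWAT, 2509 and 1834 in BAT, 534 in the interaction and 1021 and 1927 between Control depots at the same thresholds, and changed no count of members. Same-numbered libraries had correlations of -0.408 to 0.137 (iWAT), -0.213 to 0.277 (BAT) and -0.116 to 0.279 (Control depots), and 0, 1 and 2 of 5 pairs correlated best with their own number. Depth limits Fgf21 in Control libraries, with 0 to 11 counts each, and counts of whole genes limit what can be said of Xbp1 splicing.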
